A study of Mus musculus with 15 samples.

Results

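The aryl hydrocarbon receptor (AHR) and the genes of its battery were followed through 5 lines of a mouse lung cancer cell line. The members were the rows of the deposited expression table that carry the symbol of 1 of 10 genes. These are the receptor gene *Ahr*, its partner *Arnt*, targets grouped here under AHR alone (*Ahrr*, *Tiparp*, *Cyp1a1* and *Cyp1b1*) and the targets that AHR shares with NRF2 (*Nqo1*, *Ugt1a6a*, *Ugt1a6b* and *Ugt1a7c*). All 10 were among the 35880 gene symbols of the table, and 9 of them, all but *Cyp1b1*, were among the 14652 genes tested. The grouping is a working one made for this description: the study itself counts *Cyp1a1* among the genes that NRF2 regulates.

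AHR is a cytosolic receptor of the bHLH-PAS family that is held by a chaperone complex until it binds a ligand such as a polycyclic aromatic hydrocarbon or a tryptophan metabolite. It then enters the nucleus, pairs with ARNT, and binds a short DNA element whose core is GCGTG at its target genes. NRF2 is a separate transcription factor that KEAP1 marks for degradation, and several enzymes of xenobiotic metabolism are targets of both factors.

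LL2/Luc2 is a Lewis lung carcinoma line that carries a luciferase. Cells of the parental line (LL2 WT) were transfected with a CRISPR plasmid against *Keap1* or against *Nfe2l2*, the gene of NRF2, and sorted as single cells. Each knockout line is therefore 1 clone (*KEAP1* KO #1, #2 and #3, and *NRF2* KO), while LL2 WT was not cloned, so a change in *NRF2* KO cannot be told apart from a property of that clone. RNA was taken in biologic triplicate, 3 samples per line and 15 in all, 24 h after the cells were split into DMEM with fetal bovine serum, and the growth protocol names no added AHR ligand. All lines share the luciferase and the medium.

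The values are CPM, the reads of a gene scaled so that every sample has nearly the same total. They sum to 998941 to 999306 per sample over the named genes, so the depth of each sample is unknown. A level of 0.1 CPM, which is 3 reads at the average depth that the methods state, is used as the floor and covers counting error only. The test was limma over all lines on log2(CPM + 0.1), and a gene is described as called at an adjusted p under 0.05 with an absolute log2 fold change over 1. *Keap1* averaged 23.0 ± 1.03 CPM (SD, n = 3) in LL2 WT and 11.8 ± 0.889, 5.53 ± 1.57 and 5.58 ± 1.60 CPM in *KEAP1* KO #1, #2 and #3, and all 9 samples of these clones were below every LL2 WT sample. In *KEAP1* KO #1 its log2 fold change of −0.95 fell just short of a call (adjusted p = 0.00668 from limma). *Nfe2l2* was at 170 to 208 CPM in LL2 WT and at 102 to 146 CPM in *NRF2* KO, with no overlap. Its change of −0.66 on the log2 scale there was not called by size (adjusted p = 0.0301 from limma). The lower level was not particular to *NRF2* KO. *Nfe2l2* was at 87.0 to 103 CPM in *KEAP1* KO #1, 122 to 124 CPM in #2 and 111 to 123 CPM in #3, also below every LL2 WT sample. The transcript level of an edited gene need not show the edit. Of the epithelial markers, *Epcam* and *Cdh1* were under the floor in all 15 samples, while *Krt8* and *Krt18* were between 65.1 and 575 CPM. Of the leukocyte markers, *Ptprc* reached at most 0.192 CPM and *Adgre1* was listed at 0 throughout. The sum of the 5 leukocyte markers was nevertheless 2.00 to 4.54 CPM in LL2 WT and 14.1 to 36.8 CPM in *KEAP1* KO #3, nearly all of it from *Cd68*, a lysosomal glycoprotein that macrophages express strongly. The 5 mesenchymal markers, among them *Vim* and *Col1a1*, summed to 3454 to 5436 CPM in LL2 WT, 3142 to 4302 CPM in *NRF2* KO and 1535 to 2044 CPM in the *KEAP1* KO clones. Nearly all of this sum was *Vim*, at 3447 to 5427 CPM in LL2 WT. Called lower were 1, 5 and 4 of the markers in *KEAP1* KO #1, #2 and #3, and 1 was called higher in #1. Of all genes tested, 3.99%, 7.75% and 7.34% were called lower in these clones, and 4.55% higher in #1. The markers *Col1a1*, *Col1a2* and *Pdgfrb* were low, with at most 0.829, 0.442 and 0.822 CPM in LL2 WT. All *Cdh2* samples were above every LL2 WT sample in *KEAP1* KO #1, #3 and *NRF2* KO, and below in #2. The 3 endothelial markers summed to 2.47 to 7.48 CPM over all samples, and *Cdh5*, of adherens junctions, was called higher in *KEAP1* KO #2 and #3 (2.92 and 3.45). *Cdh5* reached the sum of 3 CPM needed for testing only with the *KEAP1* KO samples. The part of these marker changes in the results below was not tested.

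Promoters were read for the members because AHR acts at a short element. RefSeq windows of 300 bases (250 before and 50 after the start, build GRCm38.p6) were at hand for 8 of the 10 members. The AHR core GCGTG was searched on both strands and is in capitals below, as CACGC where it lies on the strand opposite to the gene. It occurs in 32.4% of all 32851 windows. It was found 3 times at *Ahrr*, once each at *Arnt*, *Tiparp*, *Cyp1a1* and *Cyp1b1*, and not in these windows of *Nqo1*, *Ugt1a6a* and *Ugt1a7c*. The windows of the 3 tested targets of AHR alone are shown since their levels are set side by side below.
*Cyp1a1*: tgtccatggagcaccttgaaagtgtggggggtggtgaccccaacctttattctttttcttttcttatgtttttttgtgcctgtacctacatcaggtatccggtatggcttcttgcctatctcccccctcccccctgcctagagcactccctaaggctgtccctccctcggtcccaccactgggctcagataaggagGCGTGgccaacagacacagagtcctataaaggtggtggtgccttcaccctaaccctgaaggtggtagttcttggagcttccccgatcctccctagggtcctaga
*Tiparp*: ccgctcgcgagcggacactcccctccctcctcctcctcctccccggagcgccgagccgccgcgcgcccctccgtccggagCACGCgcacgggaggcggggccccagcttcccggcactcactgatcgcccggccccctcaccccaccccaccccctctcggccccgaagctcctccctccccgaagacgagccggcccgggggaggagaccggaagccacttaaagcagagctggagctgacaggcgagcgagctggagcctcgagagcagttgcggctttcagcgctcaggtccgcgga
*Ahrr*: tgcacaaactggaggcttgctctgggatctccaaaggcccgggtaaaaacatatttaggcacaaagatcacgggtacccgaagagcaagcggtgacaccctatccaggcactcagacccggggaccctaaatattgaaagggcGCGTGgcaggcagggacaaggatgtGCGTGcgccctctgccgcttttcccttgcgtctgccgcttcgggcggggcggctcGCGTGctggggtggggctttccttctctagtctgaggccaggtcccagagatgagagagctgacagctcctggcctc

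The *Cyp1a1* window is chr9:57697363-57697662 on the plus strand, with its core 50 bases before the start. The *Tiparp* window is chr3:65528197-65528496 on the plus strand, with its core 166 bases before the start. The *Ahrr* window is chr13:74292282-74292581 on the minus strand, with cores 103, 78 and 23 bases before the start. The core of the NRF2 element, TGACNNNGC on either strand, was found only in the *Arnt* window, 2 times, and occurs in 12.4% of all windows. A match of these letters is a description and not a measured binding site. Sequence outside these windows was not searched, so the lack of a match does not show that a gene lacks the element.

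The receptor itself was higher in each *KEAP1* KO clone than in the parental line. *Ahr* (chromosome 12, 35497974 to 35535038, minus strand) was at 2.76, 3.27 and 5.20 CPM in the parental replicates. It was at 11.1, 12.15 and 14.1 CPM in *KEAP1* KO #1, at 12.8, 13.1 and 17.7 CPM in *KEAP1* KO #2, and at 17.0, 17.2 and 26.5 CPM in *KEAP1* KO #3. Every sample of the *KEAP1* KO clones was above every LL2 WT sample. The means were 3.33, 3.88 and 5.41 times that of LL2 WT. In such bulk samples, more cells with a transcript and more of it per cell cannot be told apart. The log2 fold changes of 1.75, 1.96 and 2.42 (standard error 0.24) were called, with adjusted p from limma of 0.000296, 6.62e-05 and 1.06e-05.

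In *NRF2* KO, *Ahr* was at 1.97, 2.77 and 2.34 CPM. Of these samples, 2 were below every LL2 WT sample and 1 lay within their range. The log2 fold change was −0.60 (95% interval −1.13 to −0.08, adjusted p = 0.377 from limma) and was not called. In rising order of level the lines stood as *NRF2* KO, LL2 WT, *KEAP1* KO #1, #2 and #3. Between neighbours in this order, the differences of *NRF2* KO from LL2 WT, of *KEAP1* KO #2 from #1 (adjusted p = 0.672) and of #3 from #2 (adjusted p = 0.718) did not pass the adjusted test by limma. Against LL2 WT samples of the same number, the 3 *NRF2* KO samples were each lower, by log2 ratios of −0.47, −0.23 and −1.12. *Gm48236* overlaps *Ahr* on the opposite strand, and the strand setting of the pseudo-alignment is not given in the sources used here.

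*Arnt*, which encodes the nuclear partner of AHR, was not called in any line. It was at 27.5, 23.3 and 36.2 CPM in LL2 WT. It was at 24.5, 25.4 and 30.1 CPM in *KEAP1* KO #1, at 21.8, 21.8 and 25.6 CPM in *KEAP1* KO #2, at 22.1, 21.4 and 28.5 CPM in *KEAP1* KO #3, and at 23.5, 20.8 and 32.2 CPM in *NRF2* KO. Each knockout line overlapped LL2 WT. The log2 fold changes in this order were −0.10, −0.31, −0.26 and −0.18 (standard error 0.19), with adjusted p from 0.233 to 0.783 from limma. The intervals reach from −0.72 to 0.31, so a change of the size seen for *Ahr* lies outside them. With replicate 3 as a separate term, the same log2 fold changes of *Arnt* had a standard error of 0.09. The adjusted p from limma was then 0.0137 and 0.0336 in *KEAP1* KO #2 and #3, and 0.410 and 0.261 in #1 and *NRF2* KO. The sizes were under the threshold of 1, so *Arnt* was still not called.

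The samples numbered 3 ran high for several members. *Arnt*, *Tiparp* and *Ugt1a6b* were highest in replicate 3 in 5 of 5 lines, and *Ahr* and *Ugt1a6a* in 4 of 5. For *Tiparp*, replicate 3 was 1.301 to 1.98 times the mean of replicates 1 and 2 of its line. *Nqo1* was highest in replicate 3 in 1 of 5 lines. The labels do not say what the number marks, so same-numbered values are given below where they bear on a member.

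Of the targets of AHR alone, *Cyp1a1* rose in all 3 *KEAP1* KO clones, *Tiparp* and *Ahrr* were not called, and *Cyp1b1* was too low to be tested. *Cyp1a1* (chromosome 9, 57687928 to 57703824, plus strand) encodes the cytochrome P450 that oxidizes polycyclic aromatic hydrocarbons and is the classic reporter of AHR activity. It was at 0, 0.0245 and 0.0142 CPM in LL2 WT, all under the floor. It was at 2.45, 5.29 and 4.73 CPM in *KEAP1* KO #1, at 7.92, 7.19 and 6.67 CPM in *KEAP1* KO #2, and at 5.59, 6.38 and 7.46 CPM in *KEAP1* KO #3. All 9 values were above the floor and above LL2 WT, and the replicates of *KEAP1* KO #1 spread more widely than those of the other clones. Measured against the floor, the mean of *KEAP1* KO #1 was at least 41.6-fold higher, that of #2 at least 72.6-fold and that of #3 at least 64.8-fold, each called by limma (largest adjusted p = 6.92e-08). It is listed at 0 in the 3 *NRF2* KO samples, and with both groups under the floor no fold is given.

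*Tiparp* (chromosome 3, 65528410 to 65555518, plus strand) encodes an ADP-ribosyltransferase that AHR induces and that represses AHR in turn. It was at 35.3, 28.2 and 62.9 CPM in LL2 WT. It was at 20.8, 19.0 and 34.0 CPM in *KEAP1* KO #1, at 22.0, 21.5 and 28.3 CPM in *KEAP1* KO #2, and at 21.7, 20.6 and 35.7 CPM in *KEAP1* KO #3. In each clone 2 of 3 samples were below every LL2 WT sample, and replicate 3 lay within the LL2 WT range. The log2 fold changes were −0.74, −0.74 and −0.66 (standard error 0.33), with adjusted p of 0.123, 0.1003 and 0.144 from limma, and were not called. *NRF2* KO, at 31.3, 33.1 and 55.2 CPM, overlapped LL2 WT throughout (log2 fold change −0.05, adjusted p = 0.978).

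Between samples of the same number, *Tiparp* was lower than LL2 WT in each of the 9 *KEAP1* KO samples, by log2 ratios from −0.39 to −1.15. With replicate 3 as a separate term, the same log2 fold changes had a standard error of 0.12 and adjusted p of 0.000368, 0.000224 and 0.000541 from limma. Without the 5 samples numbered 3 the log2 fold changes were −0.66, −0.54 and −0.58, with adjusted p of 0.00450, 0.00617 and 0.00442. In neither case was the size past the threshold of 1, so *Tiparp* was still not called.

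*Ahrr* encodes the AHR repressor, which competes with AHR for ARNT and is itself induced by AHR. *Ahrr* (chromosome 13, 74211118 to 74292331, minus strand) was at 0.325, 0.776 and 0.410 CPM in LL2 WT. It ranged from 0.109 to 0.779 CPM in *KEAP1* KO #1, from 0.319 to 0.561 CPM in *KEAP1* KO #2, from 0.478 to 1.23 CPM in *KEAP1* KO #3, and from 0.242 to 0.638 CPM in *NRF2* KO. Every line overlapped LL2 WT. The log2 fold changes of −0.56, −0.22, 0.51 and −0.25 (standard error 0.53) were not called, with adjusted p from 0.487 to 0.904 from limma. At this low level the intervals are wide, from −1.70 to 1.66 over the 4 lines, so a change of 2-fold in either direction lies within them.

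*Cyp1b1*, the other P450 of the AHR battery, had a sum of 0.887 CPM over the 15 samples and was not tested. In *KEAP1* KO #1 it was at 0.297, 0.0386 and 0.197 CPM, so that 2 samples lay above the floor. It was at or under the floor in the 12 samples of the other lines, from 0 to 0.0966 CPM. In these lines it was not detectable at this depth.

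**Figure D1:**
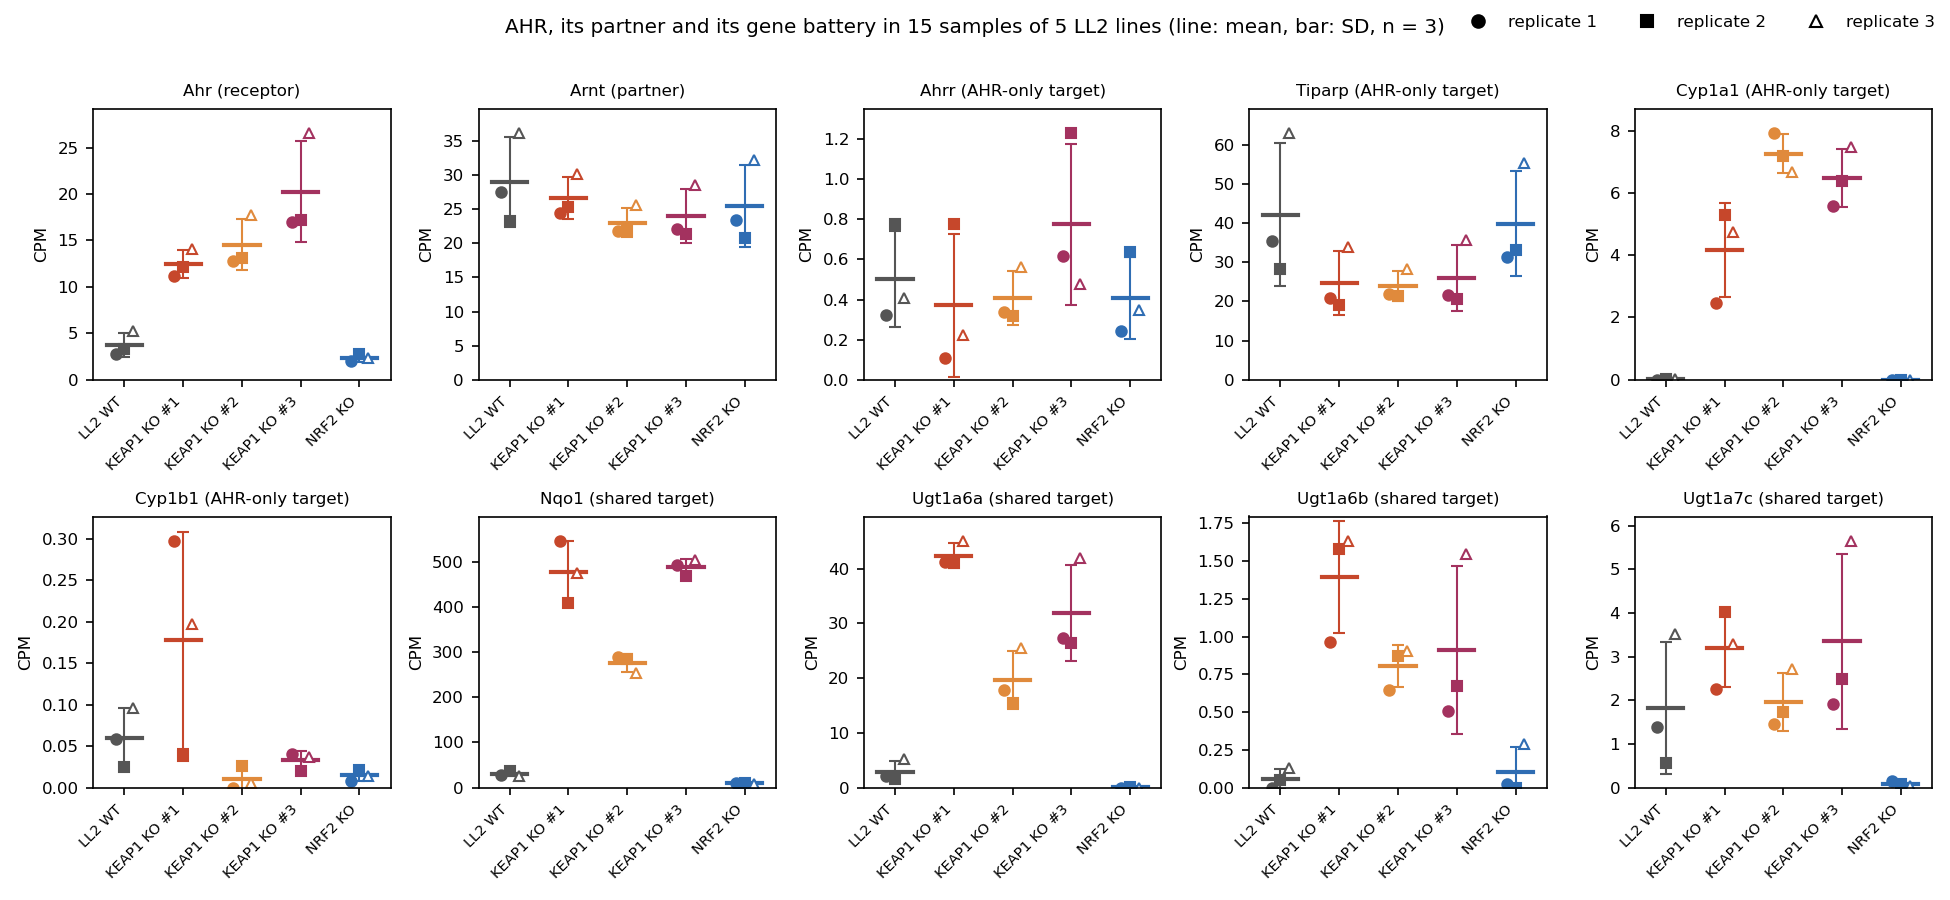
Levels of the 10 genes in CPM (vertical axes, each from 0) in the 3 replicates of each line (horizontal axis), with the mean as a line and the SD as a bar. *Ahr*, *Cyp1a1*, *Nqo1*, *Ugt1a6a* and *Ugt1a6b* lie above LL2 WT in all 9 *KEAP1* KO samples, while *Arnt*, *Ahrr* and *Tiparp* overlap LL2 WT in every clone, and the open triangles of replicate 3 are highest for *Arnt* and *Tiparp* in 5 of 5 lines.

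Of the 4 shared targets, *Nqo1*, *Ugt1a6a* and *Ugt1a6b* rose in each *KEAP1* KO clone. *Nqo1* (chromosome 8, 107388225 to 107403206, minus strand) encodes a quinone reductase that is a standard readout of NRF2. It was at 28.3, 36.5 and 26.1 CPM in LL2 WT. It was at 545, 409 and 476 CPM in *KEAP1* KO #1, at 289, 285 and 253 CPM in *KEAP1* KO #2, and at 493, 468 and 502 CPM in *KEAP1* KO #3. The 9 *KEAP1* KO values were far above LL2 WT, with *KEAP1* KO #2 below both of the other clones without overlap. The means were 15.7, 9.08 and 16.1 times that of LL2 WT (largest adjusted p = 6.96e-09 from limma). In *NRF2* KO it was at 9.94, 11.0 and 8.55 CPM, below every LL2 WT sample, and it was called lower there (log2 fold change −1.61, standard error 0.14, adjusted p = 5.68e-05 from limma).

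*Ugt1a6a*, *Ugt1a6b* and *Ugt1a7c* encode UDP-glucuronosyltransferases, which attach glucuronic acid to phenols and other substrates. They are read from 1 locus on chromosome 1 (*Ugt1a7c* from 88095062 to 88220002, *Ugt1a6b* from 88103252 to 88219003 and *Ugt1a6a* from 88134809 to 88218997, plus strand), where each has its own first exon and all share the downstream exons. Of the 31-base stretches of their transcripts, 53.0% for *Ugt1a6a*, 84.2% for *Ugt1a6b* and 55.7% for *Ugt1a7c* also occur in another gene. Reads can be exchanged between them, so the split is uncertain. *Dnajb3* and *Gm20528* overlap all of them on the opposite strand. For *Ugt1a6a*, *Ugt1a6b* and *Ugt1a7c*, 8.4%, 15.5% and 8.6% of the stretches occur as the opposite strand of another gene's transcript. The strand setting is not given, so reads of such transcripts could be included.

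*Ugt1a6a* was at 2.21, 1.51 and 5.16 CPM in LL2 WT. It was at 41.2, 41.0 and 45.02 CPM in *KEAP1* KO #1, at 17.9, 15.5 and 25.6 CPM in *KEAP1* KO #2, and at 27.4, 26.3 and 41.9 CPM in *KEAP1* KO #3, all above LL2 WT, and was called in each (largest adjusted p = 0.000213 from limma). In *NRF2* KO replicate 2 it was at 0.133 CPM, and replicates 1 and 3 were under the floor. It was called lower there, with a log2 fold change of −4.35 (standard error 0.41, adjusted p = 0.000171 from limma). This value depends on the pseudocount, since *NRF2* KO lies near the floor.

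*Ugt1a6b* was at 0, 0.0496 and 0.129 CPM in LL2 WT and from 0.511 to 1.63 CPM in the 9 *KEAP1* KO samples, with no overlap. Its log2 fold changes of 3.27, 2.57 and 2.61 were called (largest adjusted p = 0.00273 from limma). Those in *KEAP1* KO #2 and #3 were 0.77 and 0.81, and not called, when 1 CPM was added in place of 0.1. In *NRF2* KO it was at 0.0266, 0 and 0.291 CPM, which overlaps LL2 WT, and it was not called (0.18, adjusted p = 0.936 from limma). *Ugt1a7c* was at 1.39, 0.566 and 3.51 CPM in LL2 WT and from 1.45 to 5.64 CPM in the *KEAP1* KO samples. These ranges overlap, and the log2 fold changes of 1.07, 0.38 and 1.02 were not called (adjusted p from 0.177 to 0.629). Without LL2 WT replicate 3, the highest sample of that line, *Ugt1a7c* was called in *KEAP1* KO #1 (1.69) and *KEAP1* KO #3 (1.64).

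In *NRF2* KO, *Ugt1a7c* was at 0.156, 0.0884 and 0.0326 CPM, below every LL2 WT sample. It was called lower (log2 fold change −3.04, adjusted p = 0.0226 from limma), but this call was lost on leaving out any 1 of LL2 WT replicates 1 and 3 and *NRF2* KO replicates 1, 2 and 3 (adjusted p from 0.0611 to 0.0958). When 1 CPM was added in place of 0.1 the value was −1.23 (adjusted p = 0.196).

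Summing the *Ugt1a* genes removes the split between them, but not the limit from the opposite strand. The 9 genes together were at 3.61, 2.17 and 8.91 CPM in LL2 WT. They were at 44.4, 46.8 and 49.98 CPM in *KEAP1* KO #1, at 20.1, 18.2 and 29.3 CPM in *KEAP1* KO #2, at 29.9, 29.7 and 49.5 CPM in *KEAP1* KO #3, and from 0.182 to 0.324 CPM in *NRF2* KO. All samples of the *KEAP1* KO clones were above LL2 WT and all of *NRF2* KO below. The log2 fold changes of 3.48, 2.39, 3.06 and −3.65 (standard error 0.39) were called, with adjusted p from 6.03e-05 to 0.000565 from limma.

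**Figure D2:**
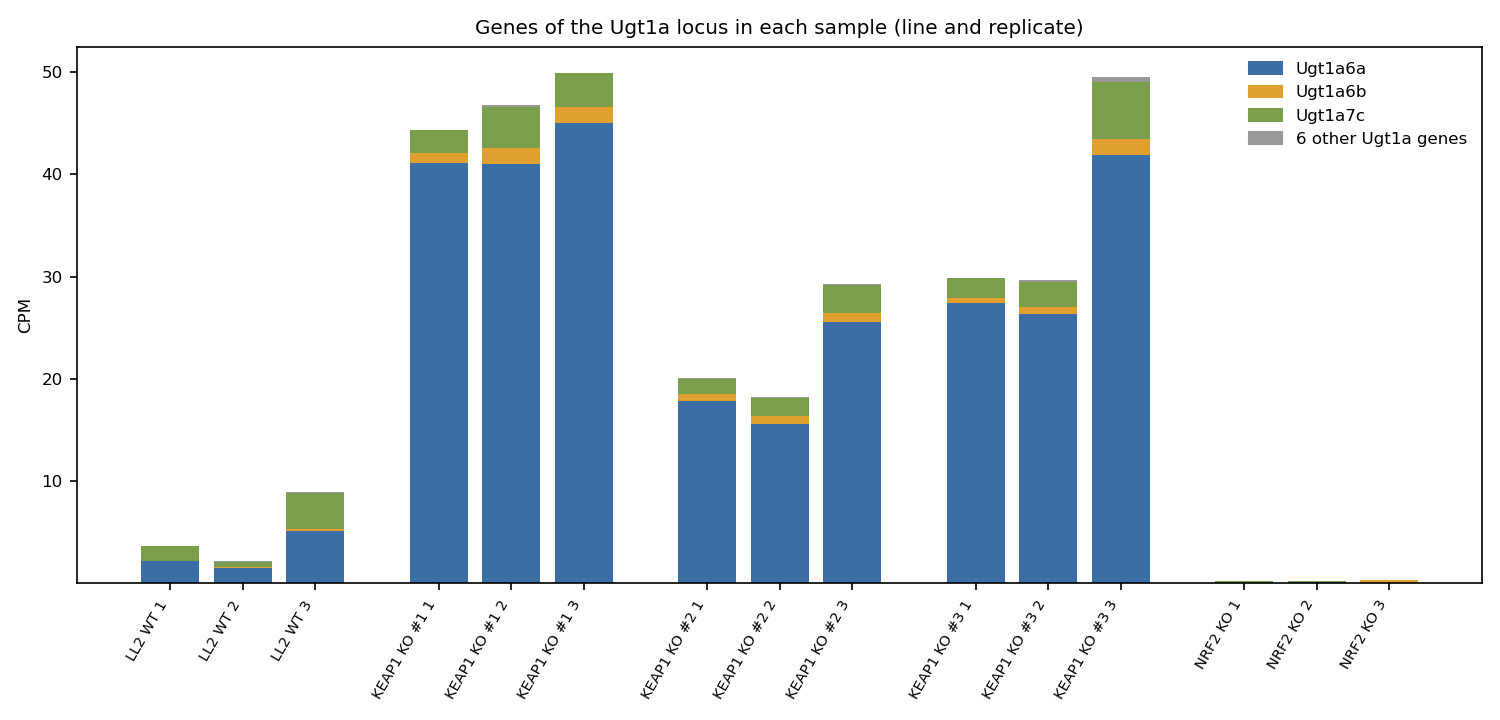
CPM of the genes of the *Ugt1a* locus (vertical axis) stacked for each of the 15 samples (horizontal axis, line and replicate). The stacks reach 44.4 to 49.98 CPM in *KEAP1* KO #1 and at most 0.324 CPM in *NRF2* KO, and the split within a stack is uncertain because the transcripts share sequence.

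In each *KEAP1* KO clone, *Ahr*, *Cyp1a1*, *Nqo1*, *Ugt1a6a* and *Ugt1a6b* were called higher, 5 of the 9 tested members, and 0 were called lower. Of all genes tested, 4.55%, 5.94% and 6.09% were called higher in *KEAP1* KO #1, #2 and #3, and 3.99%, 7.75% and 7.34% lower. In *KEAP1* KO #1 these were 667 genes higher and 584 lower, against 553 and 724 after rescaling by the median ratio. *Cyp1a1* and *Ugt1a6b* reached the minimum sum of 3 CPM through the *KEAP1* KO samples, having sums of only 0.0387 and 0.497 CPM over the 6 other samples. They could only be tested because they were high there, so the count of members called is a description and is not read against the share of all genes. Of the targets grouped under AHR alone, *Cyp1a1* was called and *Tiparp* and *Ahrr* were not. Of the shared targets, *Nqo1*, *Ugt1a6a* and *Ugt1a6b* were called and *Ugt1a7c* was not. The difference between these groups was not tested.

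In *NRF2* KO, 3 of the 9 tested members were called lower and 0 higher, against 0.375% lower and 0.0887% higher of all genes tested. These 3, *Nqo1*, *Ugt1a6a* and *Ugt1a7c*, are all shared targets. When the model held just the 2 lines compared, none of them was called (0 of 9 members, adjusted p of 0.0745, 0.164 and 0.493), nor were the summed *Ugt1a* genes (adjusted p = 0.176). None of the 3 tested targets of AHR alone was called there, and none had an unadjusted p under 0.05 by limma (0 of 3, where 11.2% of all genes had one), a number too small to set them apart from the shared targets. *Cyp1a1*, being under the floor in LL2 WT, could not be seen to fall. As a description with the same limit, the median log2 fold change over the 9 tested members was 1.75, 1.96, 2.42 and −0.25 in *KEAP1* KO #1, #2, #3 and *NRF2* KO, beside 0.11, 0.03, 0.02 and 0.04 over all genes. With CPM rescaled by the median ratio, the median of all genes in *KEAP1* KO #1 was 0.01. The 4 comparisons share the LL2 WT samples.

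**Figure D3:**
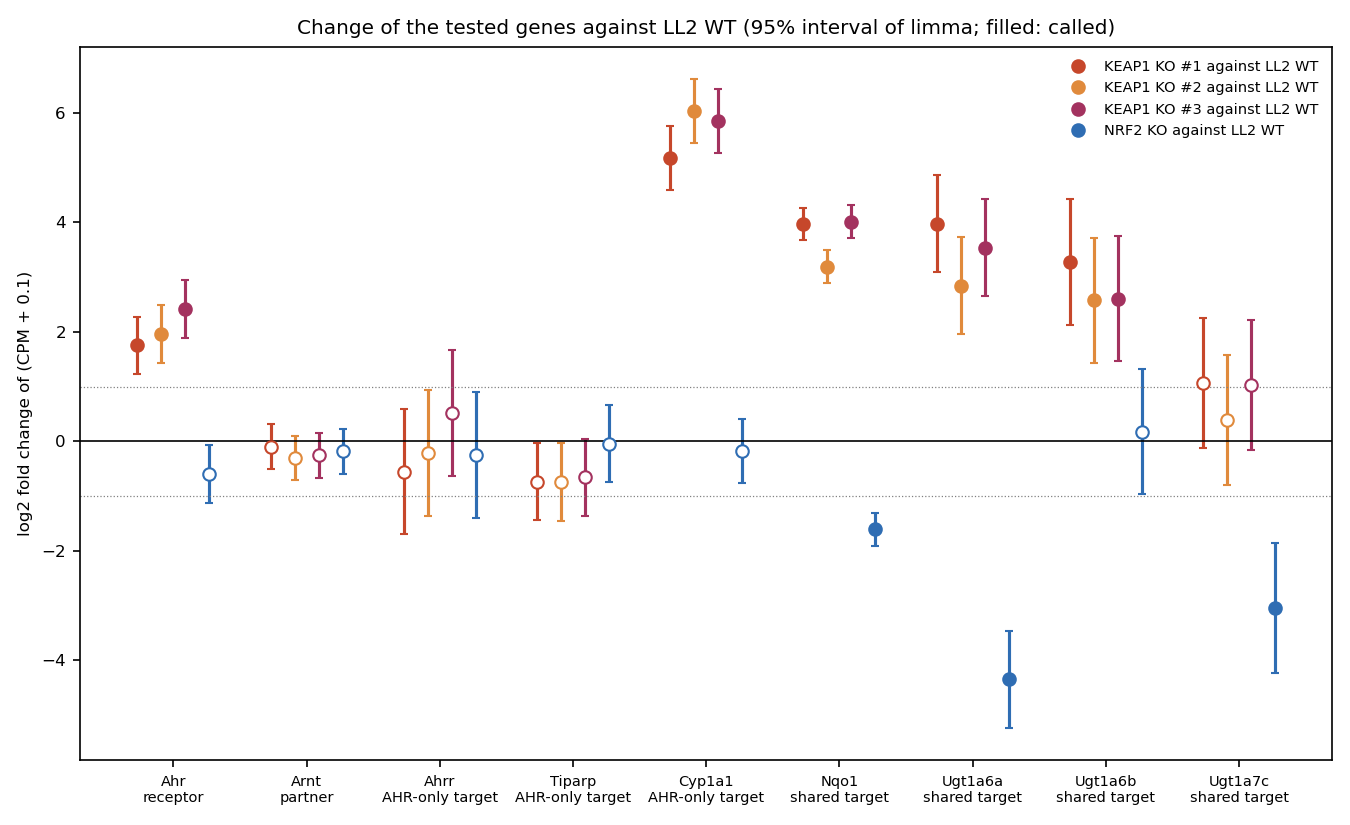
Log2 fold change of (CPM + 0.1) against LL2 WT (vertical axis) for the 9 tested members (horizontal axis, with their role), by knockout line, with the 95% interval of limma; filled points are called. *Cyp1a1* stands with *Nqo1*, *Ugt1a6a* and *Ugt1a6b* above 1 in the *KEAP1* KO clones, *Tiparp* and *Arnt* lie below 0 in all 4 lines, and in *NRF2* KO only *Nqo1*, *Ugt1a6a* and *Ugt1a7c* are called.

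The *KEAP1* KO clones were also compared with each other. No member was called between *KEAP1* KO #1 and #2, #1 and #3 or #2 and #3 by limma, where 4.58%, 4.63% and 0.485% of all genes tested were called in either direction. At an unadjusted p under 0.05 there were 3, 2 and 1 of the 9 members, where 24.1%, 25.8% and 8.22% of all genes had one, so these numbers are near the background. *Nqo1* differed between clones by less than the fold threshold but past the test. It was lower in *KEAP1* KO #2 than in #1 (log2 fold change −0.78, adjusted p = 0.00280) and higher in #3 than in #2 (0.82, adjusted p = 0.0105). For *Ugt1a6a* the difference of *KEAP1* KO #2 from #1 was −1.14 (95% interval −2.02 to −0.25, adjusted p = 0.0992). For *Cyp1a1* it was 0.86 in the other direction (0.27 to 1.44, adjusted p = 0.0604). So *KEAP1* KO #2 had the lowest mean of the clones for *Nqo1* and *Ugt1a6a* and the highest for *Cyp1a1*, with only the differences of *Nqo1* past the test.

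Among 10 genes of the AHR complex and its coactivators, all tested, 0 were called in *KEAP1* KO #1 (7 at an unadjusted p under 0.05), 2 were called higher in *KEAP1* KO #2 and in *KEAP1* KO #3, and 0 in *NRF2* KO (1 at an unadjusted p under 0.05 by limma). Of all genes tested, 36.3%, 42.9%, 42.6% and 11.2% had an unadjusted p under 0.05 in *KEAP1* KO #1, #2, #3 and *NRF2* KO, and the counts of this and the following lists are descriptions beside these shares and the shares of called genes given above. *Arnt2*, a paralog of *Arnt*, was at 0.146, 0.601 and 0.979 CPM in LL2 WT. It was at 4.81, 2.57 and 2.45 CPM in *KEAP1* KO #2 and at 4.96, 3.63 and 4.24 CPM in *KEAP1* KO #3, without overlap (log2 differences 2.50 and 2.93, adjusted p of 0.00177 and 0.000550 from limma). In *KEAP1* KO #1 it was 1.38 (adjusted p = 0.0552 from limma). *Arnt2* reached the minimum sum of 3 CPM only with the *KEAP1* KO samples, so its calls carry the limit given above for *Cyp1a1*. *Hsp90aa1*, a subunit of the chaperone that holds AHR, rose by 1.26 in *KEAP1* KO #2 and by 1.23 in #3 on the log2 scale. Without LL2 WT replicate 3 these were 1.00 and 0.97, which did not pass the threshold of size.

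The list of other genes described as AHR targets held 13 genes, of which 10 were tested. In *KEAP1* KO #1, 2 were called higher and 0 lower. In *KEAP1* KO #2 and in *KEAP1* KO #3, 5 were called higher and 2 lower. In *NRF2* KO, 0 were called, with 2 at an unadjusted p under 0.05 by limma. Over its tested genes the median change was 0.39, 1.13, 1.04 and −0.13 on the log2 scale.

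*Aldh3a1*, an aldehyde dehydrogenase of the classic AHR battery, was at 0.127, 0.0791 and 0.0228 CPM in LL2 WT. It was at 36.5, 17.9 and 35.1 CPM in *KEAP1* KO #1, at 16.4, 14.4 and 30.5 CPM in *KEAP1* KO #2, and at 36.8, 34.6 and 84.6 CPM in *KEAP1* KO #3. All 9 samples were above LL2 WT, and the 3 *NRF2* KO samples, at 0 to 0.0706 CPM, were under the floor. On the log2 scale it rose by 7.38, 6.83 and 8.13, each with a standard error of 0.41 (largest adjusted p = 1.44e-07 from limma). These sizes depend on the value added, since the LL2 WT samples lie near the floor. With 1 CPM added in place of 0.1 they were 4.78, 4.24 and 5.5, and with 0.01 CPM 8.59, 8.04 and 9.34. *Aldh3a1* reached the minimum sum through the *KEAP1* KO samples, having 0.323 CPM over the 6 others. None of its 31-base stretches occurs in another gene.

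*Ptgs2*, the inducible cyclooxygenase, was at 16.4, 21.2 and 58.9 CPM in LL2 WT and from 124 to 260 CPM in the *KEAP1* KO samples, with no overlap. It was called higher in each clone (2.55, 2.98 and 3.08). In *NRF2* KO it was at 8.05, 13.1 and 11.0 CPM, below LL2 WT, with a log2 fold change of −1.37 that was not called (adjusted p = 0.153 from limma).

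The growth factor genes *Areg* and *Ereg* and the actin-severing *Scin* were called higher in *KEAP1* KO #2 and #3 and not in *KEAP1* KO #1. *Areg* was at 31.2, 32.8 and 43.7 CPM in LL2 WT, from 35.1 to 58.7 CPM in *KEAP1* KO #1, from 91.2 to 108 CPM in *KEAP1* KO #2 and from 83.5 to 95.8 CPM in *KEAP1* KO #3. The difference of *KEAP1* KO #2 and of #3 from #1 was itself called for *Areg* (1.17 and 1.03). *Ereg* was 1.44 and 1.36 in *KEAP1* KO #2 and #3, and *Scin* 1.87 and 3.63. *Scin* in *KEAP1* KO #2 was not called when 1 CPM was added in place of 0.1 (0.84). *Scin* too reached the minimum sum of 3 CPM only with the *KEAP1* KO samples.

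Lower levels were called for *Nedd9*, a scaffold protein of cell adhesion, and *Fgf21*, a secreted metabolic factor. *Nedd9* was at 5.41, 4.30 and 6.57 CPM in LL2 WT, at 0.465, 0.424 and 0.708 CPM in *KEAP1* KO #2, and at 0.275, 0.368 and 0.994 CPM in *KEAP1* KO #3 (log2 fold changes −3.13 and −3.24, adjusted p of 0.000236 and 0.000175 from limma). In *KEAP1* KO #1 it was at 2.96, 1.05 and 2.87 CPM, also below LL2 WT, and was not called (−1.32, adjusted p = 0.0548 from limma). That absence of a call depends on the processing. *Nedd9* was called lower there when 1 or 0.5 CPM was added, after median ratio rescaling or quantile normalization, and with either replicate term. *Fgf21* was at 2.25, 0.415 and 2.91 CPM in LL2 WT and under the floor in all samples of *KEAP1* KO #2, at least 18.6-fold lower. Its call in *KEAP1* KO #3 (−2.54, adjusted p = 0.0350) was lost without LL2 WT replicate 1 or 3 or *KEAP1* KO #3 replicate 2 or 3 (adjusted p from 0.0786 to 0.125).

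The remaining tested genes of this list, *Cyp2s1*, *Slc7a5* and *Xdh*, were not called in any line. *Xdh* was at 20.4 to 28.1 CPM in LL2 WT and at 16.9 to 26.2 CPM in *NRF2* KO. It was at 29.6 to 38.8, 37.4 to 50.8 and 34.6 to 53.0 CPM in *KEAP1* KO #1, #2 and #3, above every LL2 WT sample. *Slc7a5* was at 136 to 232 CPM in LL2 WT and lower, at 119 to 127 CPM, in *KEAP1* KO #3. *Cyp2s1*, a P450, was −1.77, −1.01, −1.64 and −0.23. *Cyp1a2*, *Cyp2a5* and *Serpinb2* were not tested. *Cyp1a2*, which lies beside *Cyp1a1* on chromosome 9 and shares 7.7% of its 31-base stretches with it, was listed at 0 in LL2 WT and *NRF2* KO and at 0.0562 to 0.751 CPM in the *KEAP1* KO samples. Its level could include reads of *Cyp1a1*, and this was not tested.

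**Figure D4:**
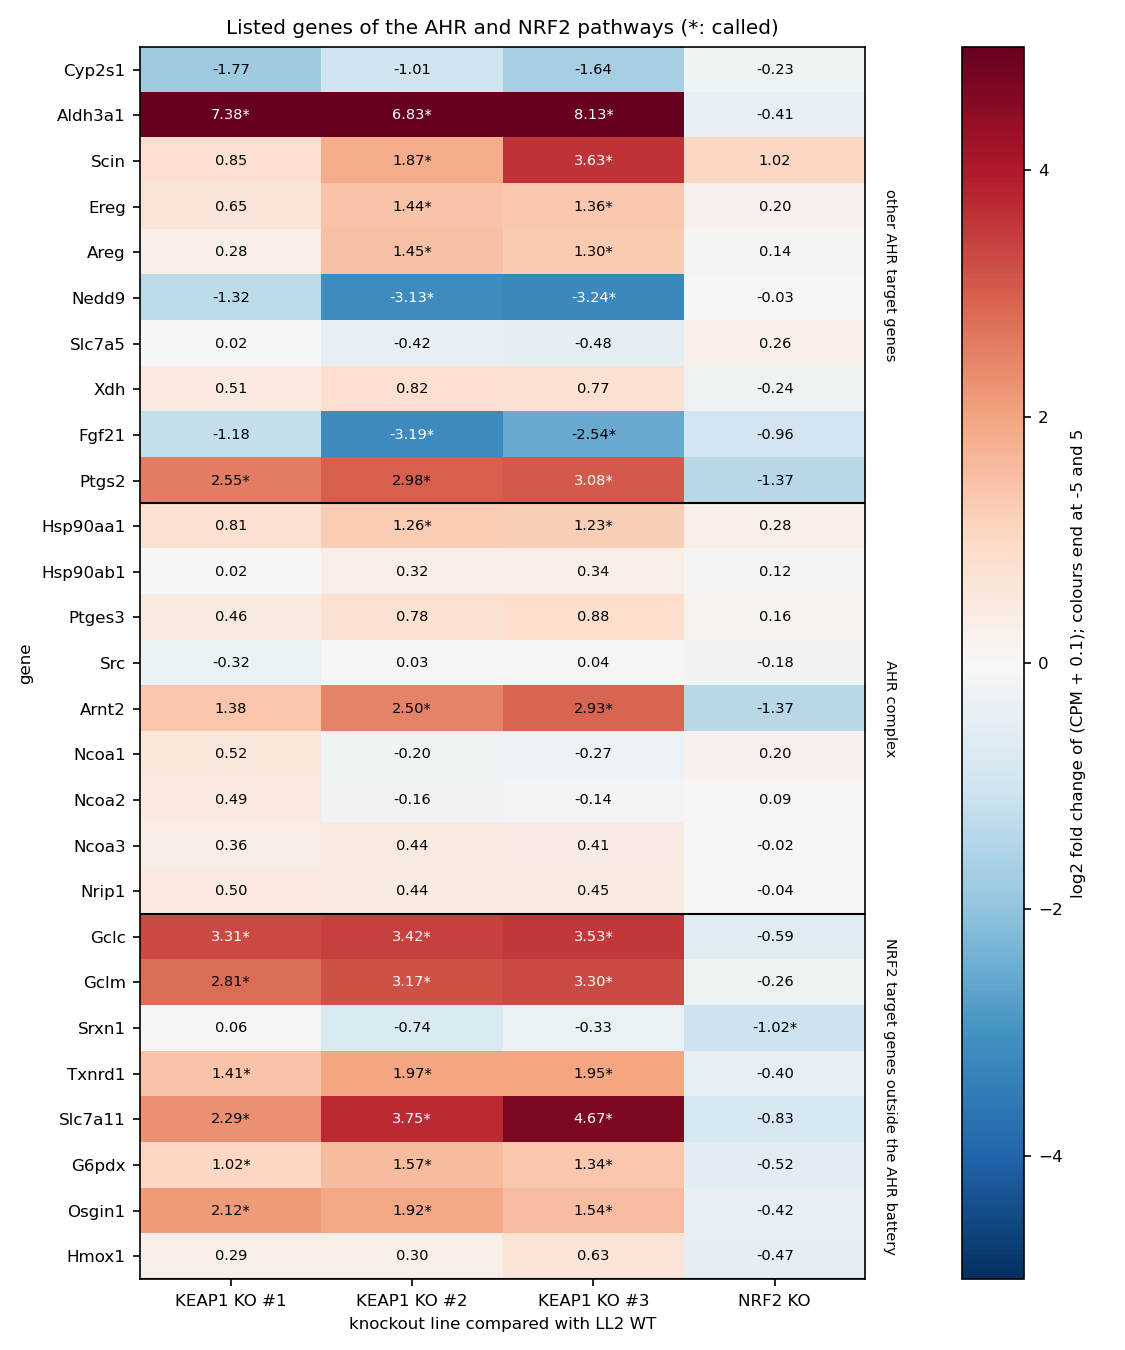
Log2 fold change of (CPM + 0.1) against LL2 WT for tested genes of 3 lists (rows) in the 4 knockout lines (columns), printed in each cell and marked with an asterisk where called. *Aldh3a1* and *Ptgs2* are called higher in the 3 *KEAP1* KO clones, *Nedd9* and *Fgf21* lower in *KEAP1* KO #2 and #3, and the single call in *NRF2* KO is *Srxn1*.

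As a reference, 8 NRF2 targets outside the AHR battery were followed. Of these, 6 were called higher in each *KEAP1* KO clone, among them *Gclc* (3.31, 3.42 and 3.53), which encodes the catalytic subunit of glutathione synthesis, and *Slc7a11* (2.29, 3.75 and 4.67), the cystine transporter. In *KEAP1* KO #1 the call of *G6pdx* was lost after median ratio rescaling (0.92) and quantile normalization (0.90). It was also lost without the samples numbered 3 (0.82), LL2 WT replicate 3 (0.88) or *KEAP1* KO #1 replicate 3 (0.96). *Hmox1*, the inducible heme oxygenase, was 0.29, 0.30 and 0.63 and *Srxn1*, which reduces peroxiredoxins, 0.06, −0.74 and −0.33, neither called. In *NRF2* KO 1 of the 8, *Srxn1*, was called lower (−1.02, adjusted p = 0.00885 from limma), a value close to the threshold that fell short of it without LL2 WT replicate 3 (−0.97) and lost its call without *NRF2* KO replicate 2 (adjusted p = 0.0532). Of 5 phase I partners, *Ephx1*, the microsomal epoxide hydrolase that acts on P450 products, was called higher in all 3 clones (2.88, 2.26 and 2.83). *Cyb5a*, cytochrome b5, was called in *KEAP1* KO #3 (1.31).

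Of the 10 genes on the list of enzymes that make AHR ligands from tryptophan, 5 were tested and 0 were called in any of the 4 lines, with 1, 1, 1 and 0 at an unadjusted p under 0.05 by limma. *Ido1* was at most 0.0760 CPM and *Kynu* at most 0.136 CPM in all samples. *Il4i1* had the lowest change of the list in *KEAP1* KO #3 (−1.27), not called. *Kyat3*, a kynurenine aminotransferase, was −0.41, −1.01, −1.03 and −0.16 (adjusted p from 0.0552 to 0.918). After rescaling by the median ratio it was called lower in *KEAP1* KO #2 and #3 (−1.03 and −1.04, adjusted p of 0.0403 and 0.0394), so the absence of calls depends on the scaling. The 6 other *Ugt1a* genes were each too low to be tested.

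Of the other bHLH-PAS genes, 13 were in the table and 7 were tested. *Clock*, a factor of the circadian clock, was called higher in *KEAP1* KO #1 (1.22), *Arnt2* as above and *Npas1* in *KEAP1* KO #2 and #3 (1.49 and 1.12), and 0 genes in *NRF2* KO (2 at an unadjusted p under 0.05 by limma). The call of *Npas1* in *KEAP1* KO #3 was lost without LL2 WT replicate 1 or 3 or *KEAP1* KO #3 replicate 2 (adjusted p from 0.1003 to 0.152), with no filter (0.0750) and with quantile normalization (0.0654). With 1 CPM added in place of 0.1, *Npas1* was called in neither clone (0.79 and 0.56). *Npas3* had the highest change of this list in *KEAP1* KO #1 (1.79) and the lowest in #3 (−0.96). Neither was called against LL2 WT, while *Npas3* was called lower in #3 than in #1 (−2.75).

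The genes whose profiles over the 15 samples were most like those of 4 members are given as a description, over 11676 genes with a mean of at least 1 CPM. Since the samples fall into groups by line and share those lines, no p is given. Most like *Ahr* were *Ptgs2* (Pearson r = 0.984), *Elovl7* (0.982) and *Dnajb4* (0.980). Most like *Cyp1a1* were *Abcc4* (0.997), *Bace1* (0.995) and *Gsta2* (0.990), and most like *Nqo1* were *Cbr3* (0.993), *Snx10* (0.991) and *Me1* (0.989). *Tiparp* was followed most closely by another set, *Kctd11* (0.979), *4931406C07Rik* (0.979) and *Adam9* (0.973).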

How the data were processed

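RNA-seq of 15 samples of 5 LL2 lines was analysed. The authors made the deposited CPM with Kallisto by pseudo-alignment to mouse transcripts, summed to genes and scaled per sample. The methods give GRCm38.p6, while the submitters' processing notes name GRCm39, and all coordinates here are of GRCm38. The low values of a sample share no common step that 1 read would give, so no count test was run. All columns were used, and 1 row that names no gene was left out (0.0214% to 0.0491% of each sample).

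The 14652 genes whose CPM added up to 3 or more entered limma 3.58.1, as log2(CPM + 0.1), in R 4.3.3, with a mean per line over all 5 lines, a trended prior and Benjamini-Hochberg adjustment over all of them. Fold changes are on this scale, which understates changes of low genes. On simulated data with 200 changed genes in *KEAP1* KO #1, the procedure recovered 172 and made 7 false calls. The changed genes lay above the floor in LL2 WT and the noise was independent between samples. The simulation therefore does not cover members near the floor or differences between replicate numbers. Nothing beyond the term biologic triplicate says how far samples of a line are independent, so p-values measure the spread between these samples.

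The members and lists were chosen with earlier results of these data known. Named are all members, the targeted genes, list genes called in at least 1 knockout and some list genes at an end of their list. The 3 genes with the highest correlation to *Ahr*, *Tiparp*, *Cyp1a1* and *Nqo1* are also named. A gene of the AHR complex list is counted but not reported here by name or value. Hepatocyte markers summed to at most 0.0369 CPM. Alternatives were pseudocounts, filters, scalings, the 2 compared lines alone, replicate terms and leaving out samples. Python 3.11.15, pandas 2.3.3, numpy 2.4.6 and matplotlib 3.10.9 were used.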

Additional observations from a re-analysis of the deposited data

Results flagged for a closer look

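Differences between *KEAP1* KO clones, tested as contrasts in the same limma model, were past the test for 1 member, *Nqo1*, and past both the test and the fold threshold for 4 genes of the pathway lists that were also called against LL2 WT. Genes of the marker lists are left out of this number, and some of them differed more. Against #1, *Pdgfrb* differed by −5.10 in #2 and by −4.85 in #3, and *Cdh5* by 2.29 and 2.82. *Cdh2* differed by 4.75 between #3 and #2, and *Cd68* by 1.66 between #3 and #1. The causes were not tested. Other listed genes passed the test at smaller differences, among them *Srxn1* (−0.81 in #2 against #1, adjusted p = 0.00511) and *Ereg* (0.80, adjusted p = 0.0132). *Keap1* itself was lower in #2 and #3 than in #1 (−1.12 and −1.11). *Nqo1* differed by −0.78 between *KEAP1* KO #2 and #1 and by 0.82 between #3 and #2 on the log2 scale, while #3 and #1 differed by 0.04 (adjusted p = 0.896). *Scin* was higher in *KEAP1* KO #3 than in #1 by 2.78 and than in #2 by 1.76. *Areg* was higher than in *KEAP1* KO #1 by 1.17 in #2 and by 1.03 in #3. *Nedd9* was lower than in *KEAP1* KO #1, with differences of −1.82 in #2 and −1.92 in #3. *Slc7a11* was higher than in *KEAP1* KO #1 by 1.46 in #2 and by 2.38 in #3.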

How the results depend on the processing

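*Ahr*, *Cyp1a1*, *Nqo1* and *Ugt1a6a* kept their calls in the *KEAP1* KO clones under every alternative. Over single members, 574 of 601 values kept their direction and their side of the threshold. The cause of the changes below was not tested. The counts of members called were 5, 5, 5 and 3 in the knockout lines and stayed within 1.5 times of that, except that 0 were called in *NRF2* KO with only the 2 lines compared, where 4 genes of all were called in place of 68. There the summed *Ugt1a* genes kept −3.65 (adjusted p = 0.176), *Nqo1* −1.61 (0.0745), *Ugt1a6a* −4.35 (0.164) and *Ugt1a7c* −3.04 (0.493). Between *KEAP1* KO #2 and #1 the count rose from 0 to 1 with *Ugt1a6a* at pseudocounts of 1 and 0.5 CPM, with replicate 3 as a separate term, with only the 2 lines and, added after seeing the data, without the 5 samples numbered 3. It was also 1 with no filter (*Cyp1b1*, −1.20) and with quantile normalization (*Cyp1a1*, 1.00), and 0 to 1 on leaving out single samples.

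Small differences in members that were not called changed sign. Without the 5 samples numbered 3, *Tiparp* in *NRF2* KO was 0.0265 and *Ugt1a6b* −0.12. Leaving out single samples gave ranges of −0.25 to 0.0706 for *Arnt* in *KEAP1* KO #1, −0.43 to 0.0880 for *Ahrr* in *KEAP1* KO #2 and −0.56 to 0.0545 in *NRF2* KO, −0.30 to 0.29 for *Tiparp* and −0.42 to 0.56 for *Ugt1a6b* in *NRF2* KO, and −0.22 to 1.00 for *Ugt1a7c* in *KEAP1* KO #2.

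A pseudocount of 1 CPM gave 784, 1275, 1303 and 44 called genes in place of 1251, 2006, 1967 and 68 in the knockout lines, and 384 and 394 in place of 671 and 679 for *KEAP1* KO #2 and #3 against #1. Rescaling by the median ratio turned the split in *KEAP1* KO #1 from 667 higher and 584 lower to 553 and 724. Same-numbered samples of 2 lines deviated together with a median r of 0.276 over 30 pairs, against −0.19 over 60 pairs of different numbers. Of the former 22 and of the latter 11 were over 0.1. Deviations were taken from the mean of each line, so pairs of different numbers fall below 0 where same-numbered pairs lie above it. The 2 medians are therefore not independent. All pairs numbered 2 or 3 were over 0.1 (lowest 0.126 and 0.422), but not all of those numbered 1 (median 0.0569, lowest −0.0221). Of the 15 samples, 5 correlated best with their own number in every other line. The numbers therefore missed the criterion for pairing, that every pair be over 0.1, and the labels do not say what they mark. With the replicate block the members called were again 5, 5, 5 and 3, while 179 genes of all were called in *NRF2* KO, and 173 with replicate 3 as a separate term. Both terms also called *Arnt2* and *Nedd9* in *KEAP1* KO #1, *Cyp2s1* in #1 and #3, *Kyat3* in #2 and #3 and *Ptgs2* in *NRF2* KO. With the block the other AHR targets called were 4 in place of 2 in *KEAP1* KO #1 and 1 in place of 0 in *NRF2* KO, and the AHR complex genes 1 in place of 0 in *KEAP1* KO #1. Of *KEAP1* KO #3 against #2, these terms gave 135 and 141 calls in place of 71, and the 2 lines alone 39. Over the lists, 43 of 408 counts changed by over 1.5 times. The unknown depth limits *Ahrr*, *Cyp1b1*, *Ugt1a6b* and *NRF2* KO values near the floor.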
